A study of Mus musculus with 8 samples.

Results

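The dystrophin glycoprotein complex links the actin cytoskeleton of the muscle fibre to the extracellular matrix across the plasma membrane. Its transcripts were examined as 8 genes, Dmd, Utrn, Dag1, Sgca, Sgcb, Sgcd, Sspn and Dtna, chosen by gene symbol from the 23045 genes of the deposited table. All 8 were found, and all 8 are protein coding. The table holds RNA-seq of mouse hearts in 2 groups of 4 libraries. WT hearts came from Mettl3lox/lox mice, in which both Mettl3 alleles carry loxP sites and no Cre is present. Mettl3 KO hearts came from mice with the same floxed alleles plus the alphaMHC-MerCreMer transgene, a tamoxifen-inducible Cre driven by a cardiomyocyte promoter. The study's methods describe tamoxifen injections into both genotypes on 7 consecutive days, starting at an age of 10 to 16 weeks. METTL3 is the enzyme that writes N6-methyladenosine (m6A) onto RNA. Because the controls lacked the transgene, effects of Cre and of the Mettl3 deletion cannot be told apart, and fibroblasts, endothelial cells and other cells outside the Cre's range keep Mettl3. The labels name the tissue as heart without giving a region, and in such bulk RNA fewer cells of a type and less RNA per cell cannot be told apart either. The libraries are named by genotype and number, and p-values measure the spread between these libraries only.

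In muscle, dystrophin binds actin inside the cell and dystroglycan in the membrane, and dystroglycan in turn binds laminin outside it. The sarcoglycans and sarcospan form a membrane subcomplex that holds this link together, while dystrobrevin and the syntrophins attach signalling proteins to it. Loss of dystrophin causes Duchenne muscular dystrophy, in which cardiomyopathy is common, and loss of a sarcoglycan causes limb-girdle muscular dystrophy. Utrophin is a close relative of dystrophin with a similar set of partners.

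2 of the 8 transcripts rose in Mettl3 KO hearts. Sspn, which codes for the small tetraspan-like membrane protein sarcospan, was 28.3% higher, and Dag1, which codes for the precursor of alpha- and beta-dystroglycan, was 17.0% higher. No member fell by limma's test after adjustment, and neither Dmd nor Utrn was called. At an unadjusted p under 0.05 limma counted 4 members, Sgcb and Dtna being lower, while 4184 of the 20313 genes tested (20.6%) lay under it. Over the whole table, 1607 of 20313 tested genes (7.91%) passed an adjusted p of 0.05 in limma, 958 higher (4.72%) and 649 lower (3.19%) in Mettl3 KO hearts. The members are abundant transcripts, and among the 5403 genes with a mean normalized read count of at least 141.0, the lowest member's mean, 861 (15.9%) were called. The median log2 fold change over the members was 0.02, against -0.009 over all tested genes. All 8 members passed the filter on low values, a mean of at least 1.

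Values are read counts per gene that the authors normalized between libraries with DESeq2 size factors and rounded, here called normalized read counts. They summed to between 2839589 and 2881849 per library in WT hearts and between 2840184 and 2916986 in Mettl3 KO hearts. The read totals, estimated from which low whole numbers each library skips, ranged from 2731618 to 3061268 and from 2631904 to 3052879, so depth differed little between the genotypes. Mettl3 itself stood at 105, 133, 118 and 107 normalized read counts in WT hearts and at 74, 68, 69 and 78 in Mettl3 KO hearts, a log2 fold change of -0.67 (standard error 0.103, adjusted p from limma = 0.000184). The ranges do not overlap and match the labels. Summed cardiomyocyte markers, 8 genes such as Myh6 and Tnnt2, were between 90581 and 97179 in WT hearts and between 87923 and 98408 in Mettl3 KO hearts, and summed skeletal muscle fibre markers did not exceed 45 in any library, with Actn3, Tnni2 and Pvalb at 0 in at least 1 library. In each of these lists 1 of 8 markers was called, lower in Mettl3 KO hearts. The labelled tissue and the markers therefore match.

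**Figure D1:**
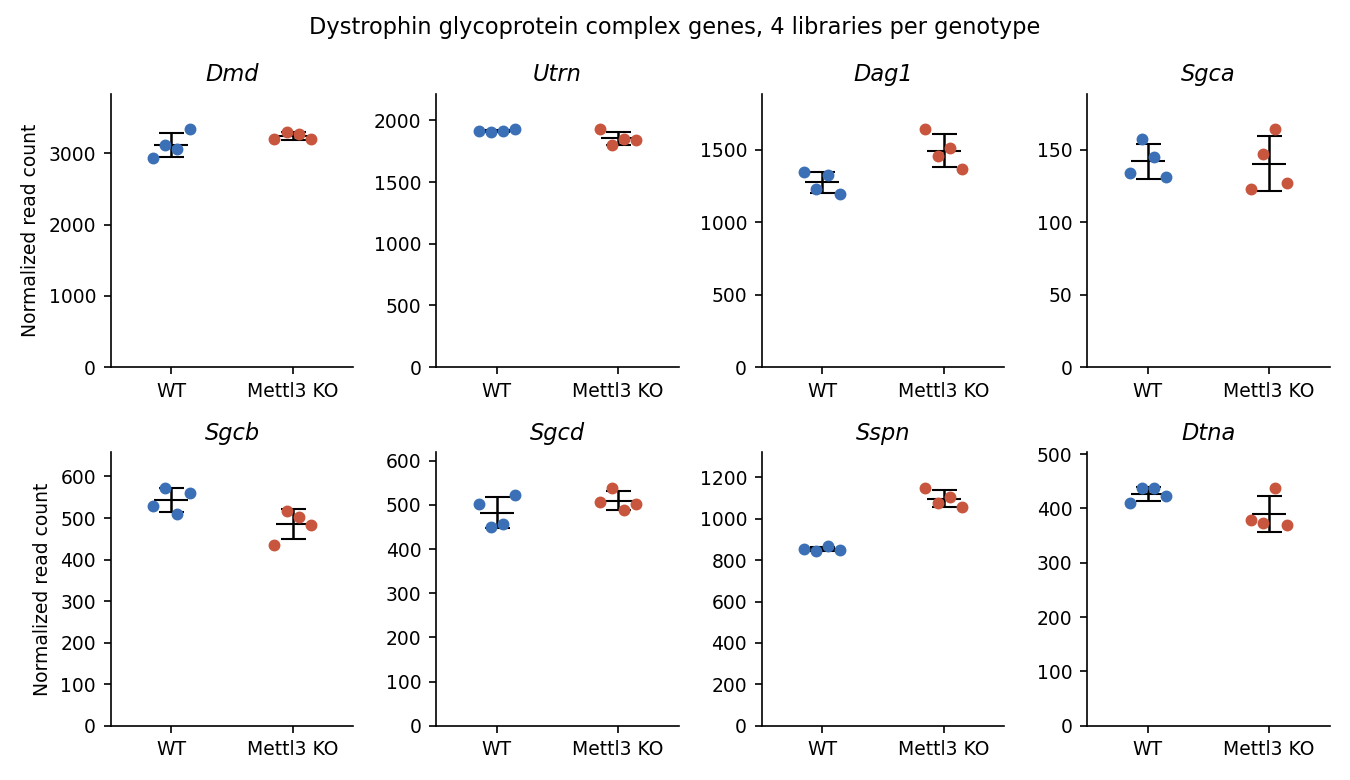
Normalized read counts of the 8 complex genes (y axis, from 0) in the 4 WT and 4 Mettl3 KO libraries (x axis). Points are libraries, the long bar is the mean and the whiskers are 1 SD. The genotypes separate without overlap for Sspn and Dag1 and overlap for the other 6 genes.

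Sspn showed the clearest difference among the members. WT libraries held 855, 846, 867 and 851 normalized read counts and Mettl3 KO libraries held 1150, 1076, 1104 and 1058. All 4 Mettl3 KO values lie above all 4 WT values, and the WT libraries were nearly equal. The means were 854.75 ± 8.96 and 1097 ± 40.1 (SD, n = 4 each), and the log2 fold change was 0.36 (standard error 0.0409, 95% confidence interval 0.27 to 0.44, adjusted p from limma = 5.57e-06). On a linear scale the interval runs from 20.9% to 36.0% higher. Non-overlap of the groups was seen for 2 of the 8 members, against 2337 of 20313 tested genes (11.5%). Sspn lies at chr6:145877367-145910949 on the plus strand (mm39, as given with the deposited table). 2 other annotated genes overlap it. The antisense RNA Sspnos averaged 3.25 normalized read counts in WT hearts and 2.25 in Mettl3 KO hearts. Gm43931, on the same strand, averaged 16.25 and 19.25. Both levels are small beside that of Sspn. Counting was by strand and left out reads that overlap several genes, and the effect of this on Sspn was not tested.

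Dag1 followed with a smaller and more variable rise. Its normalized read counts were 1343, 1232, 1328 and 1197 in WT hearts and 1641, 1456, 1511 and 1366 in Mettl3 KO hearts. The lowest Mettl3 KO library exceeded the highest WT library by a narrow margin. Means were 1275 ± 71.6 and 1493.5 ± 115 (SD, n = 4 each), giving a log2 fold change of 0.23 (standard error 0.0503, interval 0.12 to 0.33, adjusted p from limma = 0.00579), or 8.84% to 25.8% higher. Without the mean-variance trend in the fit the call was lost (adjusted p from limma = 0.208). The gene lies at chr9:108081833-108141157 on the minus strand (mm39), and no other gene of the table overlaps it.

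Sequences before annotated starts of these 2 genes are shown because these genes are the members that rose. They are the 250 bases before an annotated RefSeq start, 5′ to 3′ on the gene's strand, in build GRCm38.p6, whose coordinates differ from those of mm39 above. Capitals mark CATTCC, the M-CAT element known as a binding motif of TEAD factors in muscle genes, and GGGCGG, the core of SP1 sites, each searched on both strands. RefSeq annotates 2 starts for Sspn, at chr6:145931623-145931872 and chr6:145933872-145934121 (plus strand), and 2 overlapping windows for Dag1, of which chr9:108263959-108264208 (minus strand) is printed.
Sspn, first window: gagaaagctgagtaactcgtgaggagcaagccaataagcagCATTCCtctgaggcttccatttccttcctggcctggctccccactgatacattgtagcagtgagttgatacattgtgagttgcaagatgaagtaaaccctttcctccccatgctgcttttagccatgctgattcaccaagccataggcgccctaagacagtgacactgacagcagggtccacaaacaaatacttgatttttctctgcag
Sspn, second window: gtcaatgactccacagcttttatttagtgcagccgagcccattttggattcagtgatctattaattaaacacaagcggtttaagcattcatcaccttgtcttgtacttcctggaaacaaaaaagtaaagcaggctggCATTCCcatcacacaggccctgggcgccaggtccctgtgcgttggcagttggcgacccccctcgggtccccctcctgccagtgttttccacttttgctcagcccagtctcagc
Dag1: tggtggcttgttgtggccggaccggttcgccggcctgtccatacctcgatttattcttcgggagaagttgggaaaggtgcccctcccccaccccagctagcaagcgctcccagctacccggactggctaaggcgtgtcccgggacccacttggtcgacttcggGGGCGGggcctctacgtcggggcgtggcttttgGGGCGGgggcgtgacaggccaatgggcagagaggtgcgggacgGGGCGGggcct
By its coordinates the second Sspn window lies downstream of the first Sspn start. Each Sspn window holds 1 CATTCC and no GGGCGG, with a GC content of 48.0% and 51.2%. The Dag1 window holds 3 GGGCGG and no CATTCC, with a GC content of 67.6%. Among 32851 RefSeq promoters of this length, 12.6% hold a CATTCC and 32.7% a GGGCGG, and the median GC content is 52.4%. Of 3 further motifs searched on both strands, the E-box CANNTG occurs once in the second Sspn window and once in the Dag1 window (66.2% of promoters hold it), and neither AGATAA (10%) nor TATAAA (12.4%) occurs in the 3 printed windows. Members that were not called also hold the capitalised motifs, since Sgcd has 1 CATTCC and 1 GGGCGG, Sgcb 1 GGGCGG and 1 of 2 Dmd windows 3 GGGCGG. Dtna was left out of this comparison of members. A motif match is a description of letters and not a binding site.

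Dystrophin and utrophin transcripts were not called. Dmd, the X-linked gene of dystrophin at chrX:81992476-84249747 (plus strand), had 2931, 3121, 3059 and 3338 normalized read counts in WT hearts and 3204, 3296, 3275 and 3194 in Mettl3 KO hearts. The highest WT library lies above every Mettl3 KO library, so the groups overlap. The log2 fold change was 0.06 (standard error 0.0363, adjusted p from limma = 0.380), with an interval from -1.02% to 9.87%. Leaving out 1 library moved this estimate to between 0.03 (without WT replicate 1) and 0.09 (without WT replicate 4), and Dmd was called in none of these fits. Xist was between 0 and 4 and the Y-linked Ddx3y between 496 and 543 in all 8 libraries, so the X-linked gene was compared between libraries of the same profile. Utrn, at chr10:12257932-12745109 (minus strand), had 1915, 1905, 1914 and 1927 in WT hearts and 1929, 1803, 1847 and 1843 in Mettl3 KO hearts. 3 of the Mettl3 KO libraries lie below all WT libraries and replicate 1 lies above them. Its log2 fold change was -0.05 (standard error 0.0343, adjusted p from limma = 0.509), and the interval ran from -7.82% to 1.76%. The ratio of Utrn to Dmd normalized read counts was 0.617 ± 0.0317 in WT hearts and 0.573 ± 0.0232 in Mettl3 KO hearts (SD, n = 4 each), with overlapping ranges. Neither interval holds a change of the size seen for Sspn.

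The pseudogene Gm14769 lies within Dmd on the same strand and averaged 66.75 and 64 normalized read counts, a small part of the Dmd level. Profiles close to those of Dmd and Utrn were sought among 9313 genes with a mean of at least 50, by the root mean square difference of the centred log2 values over the 8 libraries. For Dmd the closest were Ncl (0.0159), Mrtfb (0.0215) and Gbe1 (0.0235), where the median gene differed by 0.134. For Utrn the closest were Eprs (0.0147), Slain2 (0.0184) and Rbfox2 (0.0218), against a median of 0.124. The closest genes were picked as the smallest differences among all those compared, and shared regulation was not tested.

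Dtna, which codes for alpha-dystrobrevin, the cytoplasmic partner of dystrophin, was lower in 3 of 4 Mettl3 KO libraries. WT libraries had 410, 438, 437 and 422 normalized read counts and Mettl3 KO libraries had 378, 373, 438 and 369. Replicate 3 of the Mettl3 KO hearts stands apart from the other 3 and equals the highest WT library. The log2 fold change was -0.13 (standard error 0.0595, interval -0.26 to -0.01), which did not pass the correction (adjusted p from limma = 0.194). Leaving out that library moved the estimate to -0.19 (adjusted p from limma = 0.0579). The gene lies at chr18:23548192-23792772 on the plus strand (mm39).

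None of the 3 sarcoglycans was called. Sgcb, which codes for beta-sarcoglycan and lies at chr5:73790092-73805133 (minus strand), had 528, 573, 510 and 560 normalized read counts in WT hearts and 435, 517, 503 and 484 in Mettl3 KO hearts. Only Mettl3 KO replicate 2 reaches into the WT range. Means were 542.75 ± 28.9 and 484.75 ± 35.8 (SD, n = 4 each), and the log2 fold change was -0.16 (standard error 0.0579, interval -0.28 to -0.04, adjusted p from limma = 0.0898). With an atrial index as a covariate, described below with the markers, it was -0.33 and passed (adjusted p from limma = 0.0144). This was the only 1 of 19 alternatives in which Sgcb was called. Without Mettl3 KO replicate 1, its lowest library, the estimate was -0.11 (adjusted p from limma = 0.237). Sgcd, which codes for delta-sarcoglycan and lies at chr11:46787080-47879796 (minus strand), had 501, 449, 456 and 522 in WT hearts and 506, 539, 488 and 503 in Mettl3 KO hearts. These groups overlap widely, with a log2 fold change of 0.08 (standard error 0.0564, adjusted p from limma = 0.474). Leaving out 1 library moved the Sgcd estimate to between 0.05 (without WT replicate 2) and 0.12 (without WT replicate 4). With the atrial index as a covariate it was 0.03, and Sgcd was called in none of these fits. Sgca, which codes for alpha-sarcoglycan and lies at chr11:94853617-94867153 (minus strand), was the least counted member, with 134, 157, 145 and 131 in WT hearts and 123, 147, 164 and 127 in Mettl3 KO hearts. Its log2 fold change of -0.02 (standard error 0.0954, adjusted p from limma = 0.942) came with an interval from -14.1% to 13.0%. Changes within that interval remain compatible with these libraries. Its sign turned when single libraries were left out.

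**Figure D2:**
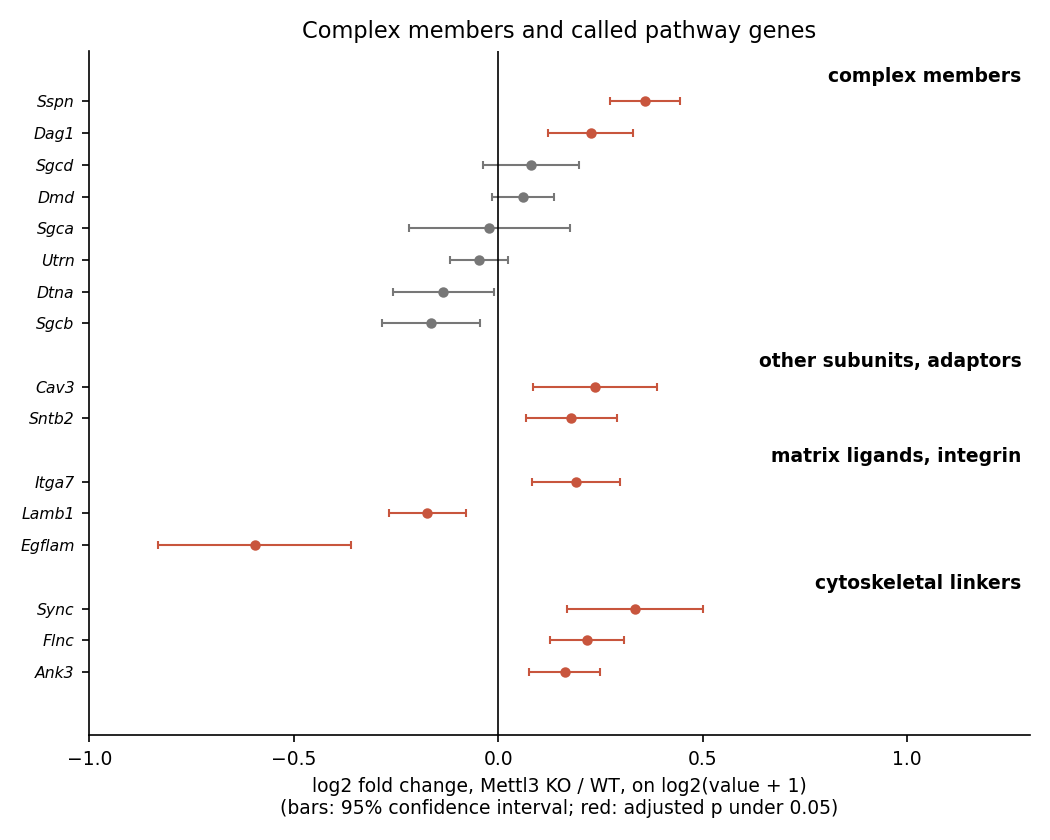
Log2 fold change of Mettl3 KO over WT hearts (x axis, on log2 of the normalized read count plus 1) for the 8 members and the 8 called pathway genes (y axis), grouped by role. Points are estimates from 4 libraries per genotype, bars are 95% confidence intervals, and red marks a limma adjusted p under 0.05. Of the members only Sspn (0.36) and Dag1 (0.23) are red, and Egflam has the lowest estimate, at -0.60.

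Ratios between members, taken within each library and chosen after the values were seen, describe the proportions of the transcripts. They are ratios of normalized read counts, not of molecules. Sspn per Dmd was 0.292, 0.271, 0.283 and 0.255 in WT hearts and 0.359, 0.327, 0.337 and 0.331 in Mettl3 KO hearts, without overlap. Dag1 per Dmd averaged 0.411 ± 0.0439 and 0.461 ± 0.037 (SD, n = 4 each), with overlap. Within the sarcoglycans, Sgcb per Sgcd was 1.13 ± 0.101 in WT hearts and 0.953 ± 0.0704 in Mettl3 KO hearts. The lowest WT ratio, 1.054, lies just above the highest Mettl3 KO ratio, 1.031. These ratios were not tested.

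Levels were compared between genes as normalized read counts per kb of exon, over the union of the exons annotated in GENCODE M21. In WT hearts Dag1 was highest at 200.6 ± 11.3 per kb, followed by Sspn at 171.1 ± 1.79 (SD, n = 4 each). Sgcb (133.9 ± 7.13) and Dmd (130.8 ± 7.14) came next and do not differ beyond their spread, with ranges of 125.9 to 141.4 and 123.1 to 140.2. Utrn followed at 112.0 ± 0.528, Sgca at 81.7 ± 6.81, Sgcd at 58.37 ± 4.27 and Dtna at 25.21 ± 0.789. In Mettl3 KO hearts the level of Sgcb per kb (119.6 ± 8.84) was below that of Dmd (136.2 ± 2.14). Union exon length counts exons that the heart may not use, which lowers the level of genes with many transcripts such as Dmd (14 annotated) and Dtna (10).

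**Figure D3:**
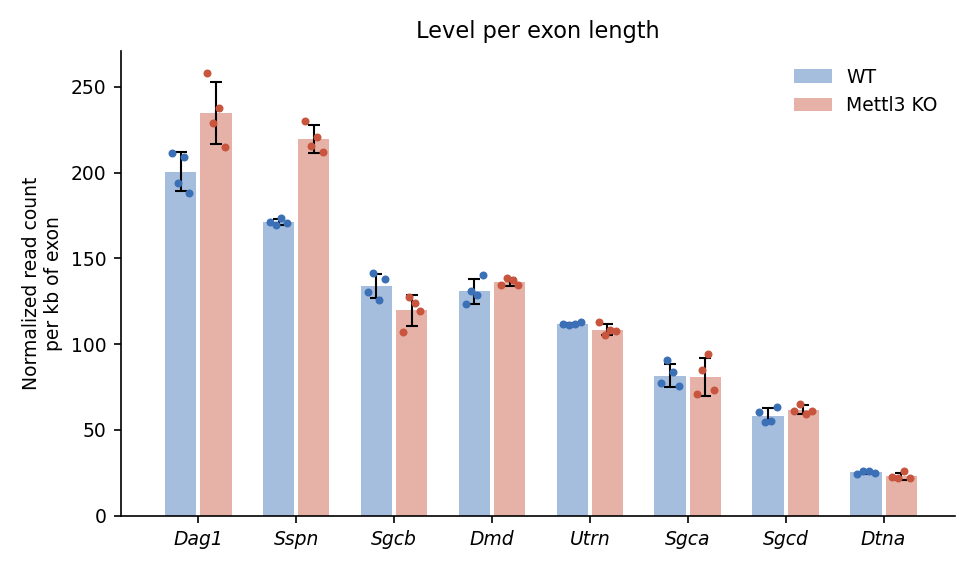
Normalized read count per kb of union exon (y axis, from 0) of the 8 members, ordered by their WT level (x axis). Bars are means, points are the 4 libraries of each genotype and whiskers are 1 SD. Dag1 and Sspn have the highest WT levels, at 200.6 and 171.1 per kb, and Dtna the lowest, at 25.21.

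The remaining genes of the pathway were taken from 3 lists by role, 27 genes in all, of which 8 were called, 6 higher and 2 lower. Their median log2 fold change was 0.04, and the groups did not overlap for 11 of them. Over all tested genes 7.91% were called and 11.5% did not overlap, and 15.9% of the abundant genes described above were called. The count of 8 fell to between 3 and 6 when 1 library was left out, to 2 with the atrial index as a covariate and to 1 without the mean-variance trend. Under that covariate the standard error of each of the 8 was larger, while the log2 fold change was larger in size for 5 (Sntb2 0.21, Cav3 0.31, Lamb1 -0.20, Flnc and Sync) and smaller for 3 (Egflam, Itga7 and Ank3). Of the other complex subunits and adaptors, 2 of 11 rose. These were Sntb2, a syntrophin (346.25 ± 13.2 against 391.75 ± 4.86 normalized read counts, SD, n = 4, log2 fold change 0.18, adjusted p from limma = 0.0428), and Cav3, the muscle caveolin that binds dystroglycan (0.24, adjusted p from limma = 0.0483). Both calls lie close to the threshold and each was lost when any 1 of the 8 libraries was left out.

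Outside the cell, 3 of 9 genes of matrix ligands and the laminin-binding integrin were called. Egflam, the gene of pikachurin, a ligand of dystroglycan best known from the retina, had 84, 84, 90 and 90 normalized read counts in WT hearts and 61, 48, 59 and 62 in Mettl3 KO hearts. The groups lie well apart, with a log2 fold change of -0.60 (standard error 0.114, adjusted p from limma = 0.00154). Lamb1, a laminin beta chain, fell by 0.17 on the log2 scale (adjusted p from limma = 0.0189). Itga7, the alpha subunit of the main laminin-binding integrin of muscle, rose by 0.19 (adjusted p from limma = 0.0255). Lamb1 lost its call when WT replicate 2 or 4 or Mettl3 KO replicate 2 or 3 was left out (adjusted p from limma up to 0.0733), and Itga7 kept its call only without WT replicate 3 or Mettl3 KO replicate 1 among these fits (up to 0.0926). With the atrial index as a covariate the log2 fold changes were -0.51 for Egflam (standard error 0.183), -0.20 for Lamb1 (0.0693) and 0.15 for Itga7 (0.0804), and none was called (adjusted p from limma = 0.122, 0.111 and 0.357). Lama2, whose product is the laminin alpha chain of muscle basement membranes, had 1457.25 ± 28.7 and 1482.75 ± 65.0 normalized read counts, and Hspg2, which codes for perlecan, had 2801.75 ± 65.6 and 2763.25 ± 73.6 (SD, n = 4 each). Neither was called.

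On the cytoskeletal side 3 of 7 linkers rose. Sync, which codes for the intermediate filament protein syncoilin, a partner of alpha-dystrobrevin, had 148, 164, 164 and 146 normalized read counts in WT hearts and 223, 194, 190 and 180 in Mettl3 KO hearts, without overlap. Its log2 fold change was 0.34 (standard error 0.0801, adjusted p from limma = 0.0104). Flnc, the gene of filamin C, an actin crosslinker that binds sarcoglycans, rose from 1631.5 ± 84.8 to 1896.75 ± 101 (SD, n = 4 each, log2 fold change 0.22, adjusted p from limma = 0.00235). Ank3, which codes for ankyrin-G, rose by 0.16 (adjusted p from limma = 0.0169). That call was lost without WT replicate 3 or 4 or Mettl3 KO replicate 3 or 4 (adjusted p from limma up to 0.0747). With the atrial index as a covariate Ank3 stood at 0.07 and was not called (adjusted p from limma = 0.572), whereas Sync stood at 0.55 and Flnc at 0.35, both called (adjusted p from limma = 0.00458 and 0.000445). Leaving out Mettl3 KO replicate 1 instead gave 0.18 for Ank3, 0.27 for Sync and 0.19 for Flnc. Without the mean-variance trend in the fit none of the 3 was called, at unchanged log2 fold changes. The adjusted p from limma was then 0.116 for Sync, 0.176 for Flnc and 0.239 for Ank3. Plec, the gene of plectin, and Ank2, the gene of ankyrin-B, had log2 fold changes of 0.11 and 0.04 and were not called (adjusted p from limma = 0.0941 and 0.572).

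Markers of other cell types moved with the genotype and are given beside these results. Summed fibroblast markers ranged from 3493 to 3883 normalized read counts in WT hearts and from 4398 to 5060 in Mettl3 KO hearts, with 7 of 8 markers called higher and none of them at 0. Endothelial markers ranged from 5508 to 5634 and from 4978 to 5412, with 4 of 8 called lower and 1 higher. Smooth muscle and pericyte markers (2749 to 2980 and 2632 to 2892) and macrophage markers (1295 to 1582 and 1309 to 1537) each had 1 of 8 called, lower. The part of these markers in the results for Sspn, Dag1 and the pathway genes was not tested.

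Atrial markers, Myl7, Bmp10 and Sln, summed to 38, 27, 0 and 27 in WT hearts and to 33, 294, 277 and 541 in Mettl3 KO hearts. 3 of the 4 Mettl3 KO libraries are high, Mettl3 KO replicate 1 lies within the WT range, and each of the 3 genes was at 0 in at least 1 library. With the mean log2 value of these 3 genes as a covariate, the log2 fold changes were 0.43 for Sspn (adjusted p from limma = 6.64e-05) and 0.39 for Dag1 (adjusted p from limma = 0.000648), against 0.36 and 0.23 without it. Because the index largely follows genotype, apart from Mettl3 KO replicate 1, this fit separates genotype from these markers poorly. Leaving out that library, without the covariate, gave 0.34 for Sspn and 0.18 for Dag1. The part of the atrial markers in the Sspn and Dag1 differences was not otherwise tested.

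**Figure D4:**
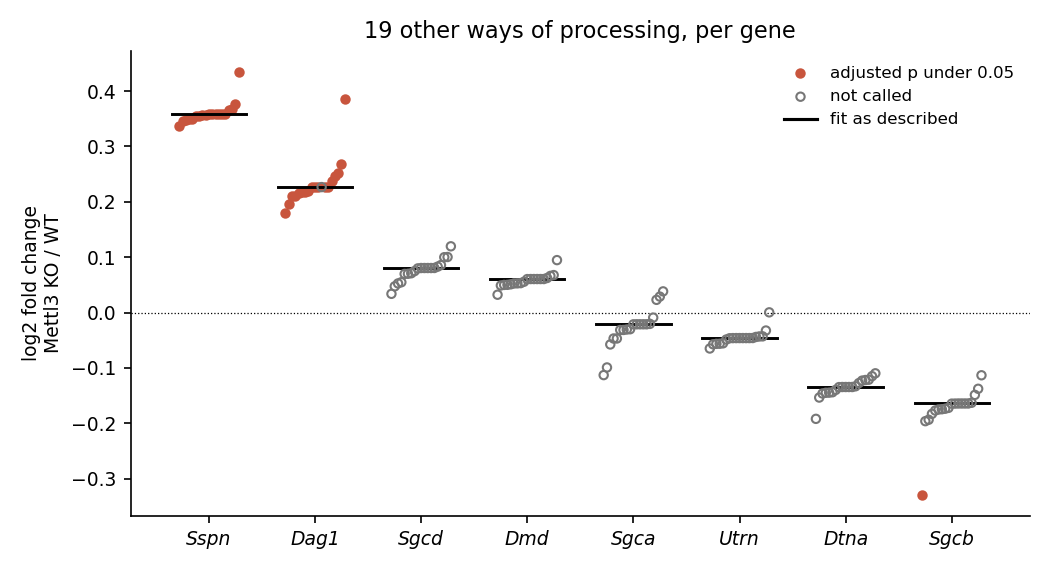
Log2 fold change of Mettl3 KO over WT hearts (y axis) for each member (x axis) under 19 other ways of processing, among them leaving out each of the 8 libraries. The black line is the value given in the text, filled points have a limma adjusted p under 0.05 and open points do not. Sspn stays called throughout, between 0.34 and 0.43, Dag1 in 18 of 19, and Sgcb is called only with the atrial index as a covariate.

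The transcripts were also compared by a letter motif of the m6A writer. METTL3 methylates adenosines mainly in a sequence context of which GGACT is a common form. In the longest protein-coding transcript of each gene in GENCODE M21, read on the sense strand, Dmd held 18 GGACT (1.21 per kb), Utrn 11 (0.888), Dag1 6 (1.06), Sspn 5 (1.11), Dtna 5 (0.794), Sgca 2 (1.16), Sgcb 2 (0.528) and Sgcd 0. The median over 14384 genes was 1.05 per kb, and 92.7% of them hold at least 1. Sspn and Dag1 lie near that median, as does Sgca, which was not called. The longest transcript need not be the one the heart uses, and no methylation was measured in these libraries.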

How the data were processed

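Total RNA of 8 mouse hearts was sequenced as stranded single-end reads. Both genotypes received 100 µg tamoxifen per 1 g body weight. Per the study's methods and the submitters' processing notes, reads were trimmed with Trimmomatic (version 0.39), aligned to mm39 with STAR (2.7.11a), cleared of duplicates with Picard (3.1.1) and of multi-mapping, ribosomal and mitochondrial reads, and counted over exons by strand with featureCounts (2.0.4). Removing duplicates of single-end reads can lower the counts of abundant transcripts. The deposited values, treated as a score, are counts that the authors normalized with DESeq2 (1.36.0) and rounded. They are not raw counts, so no count model was fitted.

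Values were analysed as log2(value + 1) with limma (3.58.1, R 4.3.3) with a mean-variance trend. Genes needed a mean of at least 1, which left out 2732. Tests were two-sided with Benjamini-Hochberg adjustment over all 20313 tested genes and a threshold of 0.05. Groups came from the labels. Scripts were tested on simulated data. Library factors were recovered by likelihood from skipped low values.

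The text names all members, every called gene of 3 pathway lists and, for ligands and linkers, the 2 most abundant others, the 3 closest profiles to Dmd and to Utrn, and Mettl3, plus overlapping genes and, chosen after their values were seen, Xist and Ddx3y. The members and lists were chosen with earlier results of these data known. 1 further list and some listed genes are not reported here, and Sgcz is not analysed here. Alternatives covered the pseudocount, filter, scaling, trend, voom, a replicate block, an atrial covariate and leaving out each library.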

Additional observations from a re-analysis of the deposited data

Results flagged for a closer look

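In groups of 4 libraries, a value was singled out when its gap to the nearest of the others exceeded Dixon's 95% critical share of the group's range. This marked 3 of 62 groups searched, where chance alone would mark 3.1. Dtna in Mettl3 KO replicate 3 stood at 438 normalized read counts, against 369 to 378 in the other 3 (gap 0.87 of the range). Cav3 in Mettl3 KO replicate 1 stood at 217, against 190 to 192 (0.926). The summed endothelial markers of WT replicate 4 were 5634, against 5508 to 5517 (0.929).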

How the results depend on the processing

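Sspn was called under all 19 alternatives, with limma adjusted p between 1.27e-06 and 0.0393, and Dag1 under 18 of them. Dmd, Utrn, Sgca, Sgcd and Dtna were called under none. Limma without the mean-variance trend left 321 genes, 1 member (Sspn) and 1 pathway gene (Egflam) called. The atrial index as a covariate left 903 genes, 3 members (Sspn, Dag1 and Sgcb) and 2 pathway genes, and turned Utrn to 0.000356. Leaving out single libraries gave 1019 to 1596 called genes, the lowest without Mettl3 KO replicate 3. It gave 3 to 6 pathway genes, with 3 without Mettl3 KO replicate 3 or WT replicate 4, 4 without Mettl3 KO replicate 4 or WT replicate 2, and 5 without Mettl3 KO replicate 2, WT replicate 1 or WT replicate 3. Sgca then ranged from -0.0992 to 0.0382 and turned positive without WT replicate 2, Mettl3 KO replicate 1 or Mettl3 KO replicate 4. The cause of these shifts was not tested, beyond fewer libraries. Of the pathway calls, Sntb2 was lost in 15 and Cav3 in 17 of 19 alternatives, Itga7 in 8, Lamb1 and Ank3 in 6 each, and Egflam, Flnc and Sync in 1 each. Voom on the recovered reads, chosen after seeing the data, gave 1548 genes, 2 members and 6 pathway genes. With a replicate block the counts were 1346, 2 and 6. The numbers are shared only as numbers, since deviations of same-numbered libraries correlated between -0.0414 and 0.0878, and only number 4 correlated best with its own. Sgca had the lowest mean normalized read count and the largest standard error of the members, and the share of depth in that error was not tested.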
